A study of Homo sapiens with 28 samples.

Results

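The genes described here are 10 factors and markers of the pluripotent state, POU5F1, SOX2, SALL4, LIN28A, LIN28B, L1TD1, DPPA2, DPPA4, ZFP42 and UTF1. They were found by symbol in the annotation of the array. At gene level 8 of the 10 had a transcript cluster (the set of probes that reads 1 gene) of their own, out of 22011 clusters in all. POU5F1 and SOX2 had only clusters shared with other symbols, 3 in number, and were read from their probesets, which are the exon-level features. The 10 genes had 88 probesets that carry their symbol alone, out of 287329, and POU5F1 shared 29 more with its near-identical copies. LIN28A is listed there under its older symbol, LIN28.

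RNA was measured on Affymetrix exon arrays in 14 cultures of 11 human cell lines, each sorted for the surface antigen SSEA3. Embryonal carcinoma (EC) lines come from germ cell tumours and embryonic stem (ES) lines from embryos. The EC lines NTERA2, 2102Ep and 833KE were grown on feeders (n = 3), which are mouse embryo fibroblasts inactivated with mitomycin C, in knock-out DMEM containing Serum Replacement plus FGF. Those same lines, with NCCIT and TERA1, were also grown on plastic (n = 5) in high-glucose DMEM with fetal calf serum. The ES group (n = 6) held H9, H14, Shef3, Shef5, Shef6 and Shef7, all on feeders in the medium the EC cells had there. Each line has 1 array per condition, so the spread within a group is the spread between lines, and EC on plastic differs from ES in cell type, surface and medium together. The arrays carry codes, of which 4 are low (up to 13: NTERA2 and 2102Ep on feeders, H14 and Shef5) and 10 are higher (from 17); the labels do not say what the codes stand for. Of 20 measured pluripotency markers outside the 10 genes, 17 or 18 lay above the array's median in EC on feeders, 14 (NCCIT) to 17 in EC on plastic and 17 or 18 in ES lines.

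POU5F1 (OCT4), a POU-domain protein, and SOX2, an HMG-box protein, bind DNA together and hold the network of pluripotency genes on, with the zinc finger protein SALL4 as a further core factor. LIN28A and LIN28B bind RNA and block the maturation of the let-7 microRNAs, and L1TD1 is an RNA-binding protein derived from a LINE-1 element. DPPA2 and DPPA4 are partner proteins on chromatin, UTF1 is a chromatin-associated factor, and ZFP42 (REX1) is a zinc finger protein widely used as a marker of undifferentiated cells.

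DPPA2 and L1TD1 were the only ones of the 10 with a feature that passed the test between EC and ES lines, and ZFP42 and DPPA2 stood apart in their spread between lines. ZFP42 varied between lines of the same kind far more than between kinds, with 1 ES line and 1 EC culture near the bottom of the scale. DPPA2 was higher in EC than in ES lines, except in NCCIT. In EC on feeders against ES, 1 of the 8 clusters passed an adjusted p of 0.05 (DPPA2, higher), against 2.29% of all clusters in either direction and 1.56% higher. There 3 of the 8 were at an unadjusted p below 0.05 in limma (DPPA2 and UTF1, higher, and SALL4, lower). The share of all clusters at that unadjusted p on feeders is not given here. In EC on plastic against ES 0 of 8 passed, with 2 (L1TD1 and DPPA2) at an unadjusted p below 0.05 in limma, against 4.6% of all clusters that passed and 19.2% at that unadjusted p. Both comparisons share the ES arrays. At exon level 5 of the 88 probesets passed in EC on feeders, all higher and all of DPPA2, against 0.953% of all probesets in either direction and 0.61% higher. In EC on plastic 4 passed, all higher, 3 of DPPA2 and 1 of L1TD1, against 2.81% in either direction and 2.07% higher. At an unadjusted p below 0.05 were 25 of the 88 on feeders and 26 on plastic, against 13.6% and 17% of all probesets. Most came from few genes, with 10 of SALL4 (lower) and 9 of DPPA2 (higher) on feeders. Those on plastic included 10 of L1TD1 and 9 of DPPA2, all higher. Probesets of 1 gene are not separate replicates, so these counts are not a result about 88 separate members. When 1 line was left out, 0 to 9 probesets passed on feeders (9 without NTERA2) and 1 to 11 on plastic (11 without NCCIT). Over the 8 clusters the median difference was 0.31 in EC on feeders and 0.29 in EC on plastic, beside medians over all clusters of 0.04 and 0.0046. All values are on the log2 scale, so a difference of 1 is a 2-fold change. A probe's own brightness enters its value, so levels are compared between arrays and not between genes. In such bulk RNA, fewer cells that express a gene and less RNA per cell cannot be told apart.

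**Figure D1:**
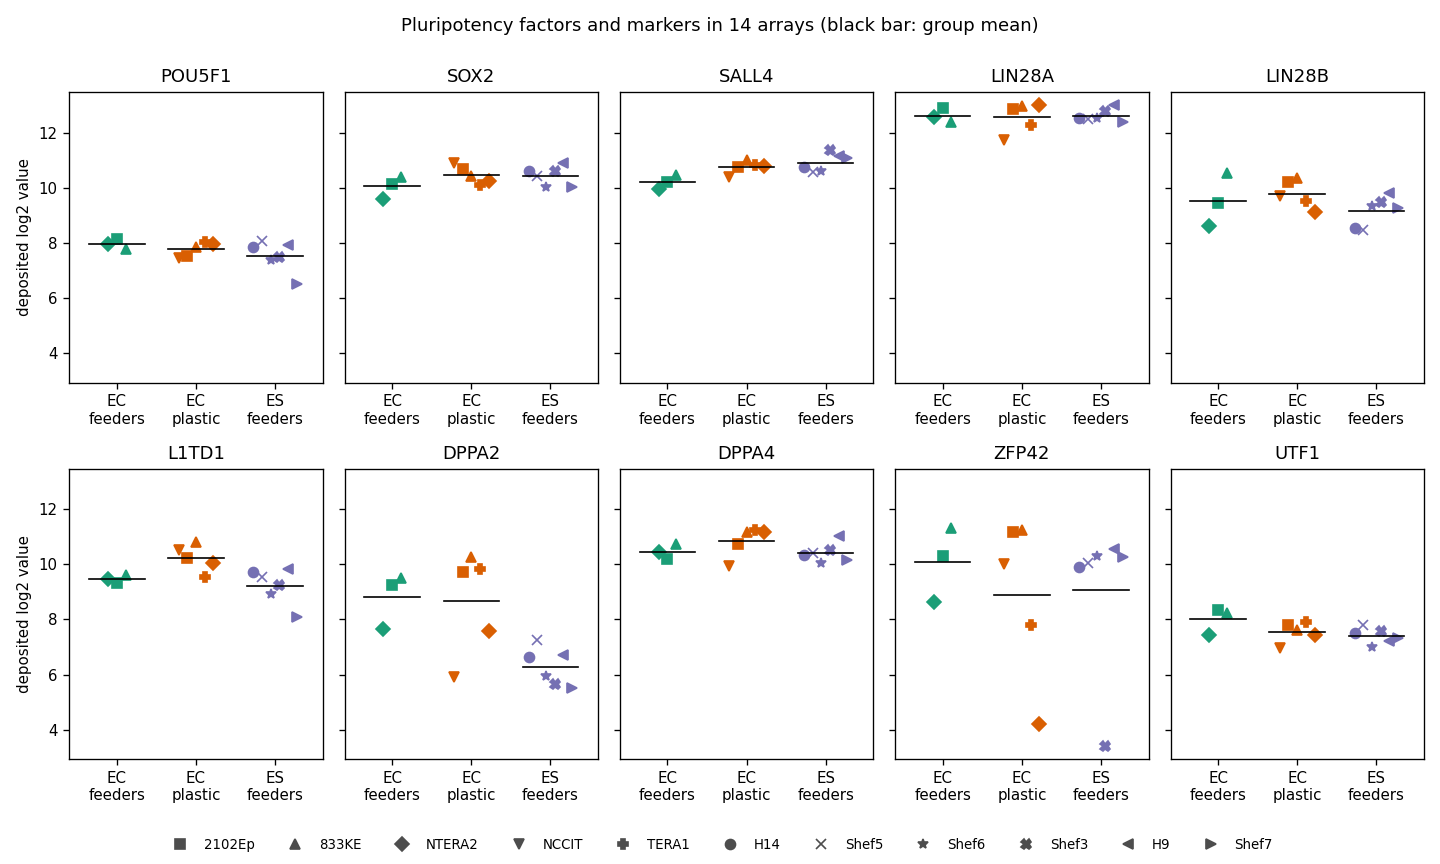
Deposited log2 value of the 10 genes (y axis) in EC lines on feeders (3 arrays), EC lines on plastic (5) and ES lines on feeders (6), with 1 point per line and the group mean as a bar. POU5F1 is the mean of 2 probesets, SOX2 of 6, and the others are transcript clusters. ZFP42 falls to 3.41 in Shef3 and 4.22 in NTERA2 on plastic, and DPPA2 lies between 5.53 and 7.24 in all ES lines.

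POU5F1 was read at the 4 probesets that carry its symbol alone, of which 2948864 was the brightest and 2948873 lay near the middle of all probesets, at the 50.15th percentile. Probeset 2948864 was at 9.04 in NTERA2, 9.58 in 2102Ep and 10.11 in 833KE on feeders. On plastic it was at 8.04 in NCCIT and between 9.07 and 9.28 in the other 4 EC lines. In ES lines its lowest, median and highest values were 7.25 (Shef7), 8.57 and 9.18 (Shef5). The groups overlapped, with NCCIT the lowest EC line and Shef7 and Shef6 the lowest ES lines. The difference from ES was 1.25 in EC on feeders (SE 0.46, adjusted p = 0.249) and 0.63 in EC on plastic (SE 0.39, adjusted p = 0.446), and neither passed. Probeset 2948873 differed the other way by -0.41 on feeders and -0.16 on plastic. The other 2 were dim, with means over all arrays of 3.54 and 3.53, below every array's exon-level median.

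The 29 probesets that POU5F1 shares with its copies POU5F1B, POU5F1P3 and POU5F1P4 were bright, and these cannot say which copy gave the signal. Their means over all arrays had a median of 11.85, and 27 of them lay above the 95th percentile of all probesets. The array medians over these 29 were 11.74 to 12.05 in EC on feeders, 11.77 to 12.06 in EC on plastic and 11.42 to 11.95 in ES lines. Shef7 was the lowest of the 14 arrays at 24 of the 29 probesets and Shef6 at the other 5. In both comparisons with ES, 28 of 29 differences were above 0, with medians of 0.23 on feeders and 0.22 on plastic, and 0 passed by limma, where 1 in each had an unadjusted p below 0.05. The 2 gene-level clusters that list POU5F1 were at lower levels, on a scale that depends on their probes. Cluster 2948863 averaged 4.50 in EC on feeders, 4.31 in EC on plastic and 4.32 in ES lines. Cluster 2360939 averaged 6.60 in EC on feeders, 6.76 in EC on plastic and 6.66 in ES lines. Across the 14 arrays the correlation of cluster 2360939 with the probesets that list POU5F1 ran from -0.21 to 0.32, and that of cluster 2948863 was 0.83, 0.70 and 0.66 with 3 of the 4 probesets of POU5F1 alone (2948871, 2948873 and 2948872), -0.11 with 2948864 and -0.35 to 0.48 with the shared ones.

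**Figure D2:**
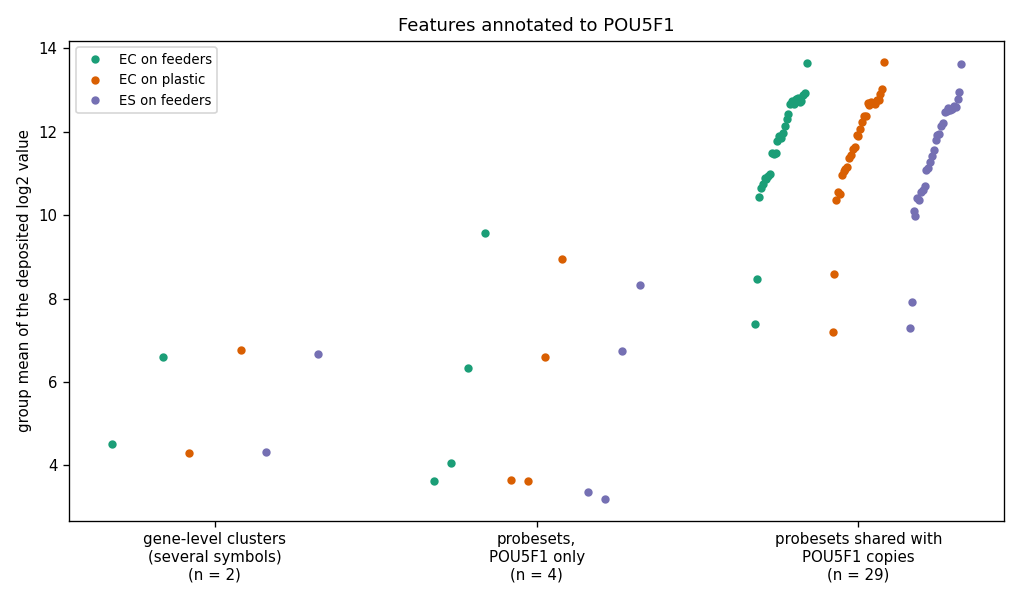
Group means of the deposited log2 value (y axis) of every feature annotated to POU5F1, in EC on feeders, EC on plastic and ES on feeders, from left to right in each block. The 2 gene-level clusters lie below 7, the 4 probesets of POU5F1 alone spread from about 3 to 10, and the means of the 29 shared probesets over all arrays run from 7.28 to 13.64.

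SOX2 did not pass in any comparison. The mean of its 6 probesets was 9.60 in NTERA2, 10.14 in 2102Ep and 10.40 in 833KE on feeders. It was 10.90 in NCCIT, 10.67 in 2102Ep, 10.44 in 833KE, 10.11 in TERA1 and 10.25 in NTERA2 on plastic. In ES lines its lowest, median and highest values were 10.04 (Shef7), 10.52 and 10.91 (H9). The groups overlapped, and NTERA2 on feeders was the lowest array. The 6 probesets differed from ES by -0.61 to -0.15 in EC on feeders (smallest adjusted p 0.359) and by -0.07 to 0.24 in EC on plastic (smallest adjusted p 0.764). At the brightest, 2654505, the 95% interval of the difference was -0.49 to 0.41 on plastic. The cluster that SOX2 shares with its overlapping transcript SOX2-OT differed by -0.48 on feeders (adjusted p = 0.295) and -0.01 on plastic.

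SALL4 was lower in all EC lines on feeders than in any ES line, by an amount that did not pass the test. On feeders it was at 9.94 in NTERA2, 10.20 in 2102Ep and 10.45 in 833KE. The plastic cultures had 10.38 in NCCIT, 10.74 in 2102Ep, 11.01 in 833KE, 10.83 in TERA1 and 10.79 in NTERA2. The ES values had a lowest, median and highest of 10.56 (Shef5), 10.90 and 11.37 (Shef3). EC on feeders lay below all ES lines without overlap, as 3.08% of all clusters did (5.78% lay above), and EC on plastic overlapped with ES. Against ES, SALL4 differed by -0.72 on feeders (SE 0.21, adjusted p = 0.113) and -0.17 on plastic (SE 0.17, adjusted p = 0.680). Quantile normalisation of the arrays put the difference on feeders at -0.87 with an adjusted p of 0.0497. All 13 probesets of SALL4 were lower than in ES on feeders (-1.03 to -0.55) and on plastic (-0.31 to -0.04), though probesets of 1 gene are not separate replicates.

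LIN28A averaged 12.60 in EC on feeders, 12.56 in EC on plastic and 12.61 in ES lines. It was at 12.55, 12.89 and 12.37 in NTERA2, 2102Ep and 833KE on feeders. On plastic the EC lines ran from 11.75 (NCCIT) to 12.99 (NTERA2), and the ES lines from 12.38 (Shef7) through a median of 12.52 to 12.98 (H9). NCCIT was the lowest of the 14 arrays and the others overlapped. LIN28A differed from ES by -0.01 on feeders (95% interval -0.41 to 0.40) and -0.05 on plastic (-0.54 to 0.45), adjusted p 0.989 and 0.943.

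LIN28B varied more, and with the line. On feeders it was at 8.62 in NTERA2, 9.44 in 2102Ep and 10.52 in 833KE. EC lines on plastic had 9.69 in NCCIT, 10.19 in 2102Ep, 10.37 in 833KE, 9.51 in TERA1 and 9.11 in NTERA2. ES lines ran from 8.48 (Shef5) through a median of 9.30 to 9.80 (H9). 833KE was the highest and NTERA2 the lowest EC line on either surface, and the groups overlapped. The difference from ES was 0.38 on feeders (SE 0.41, adjusted p = 0.705) and 0.63 on plastic (SE 0.29, adjusted p = 0.263). All 8 probesets were above ES on both surfaces, by 0.18 to 0.81 on feeders and 0.45 to 1.21 on plastic, and 0 passed in limma, with 0 and 4 at an unadjusted p below 0.05. These include 2919400, which averaged 4.78 over all arrays and lay below every array's exon-level median.

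L1TD1 was highest in EC lines on plastic. It was at 9.48, 9.32 and 9.62 in NTERA2, 2102Ep and 833KE on feeders. L1TD1 on plastic was at 10.52 in NCCIT, 10.22 in 2102Ep, 10.81 in 833KE, 9.55 in TERA1 and 10.05 in NTERA2. Among ES lines it ran from 8.08 (Shef7) through a median of 9.40 to 9.84 (H9). TERA1 was the EC line on plastic that lay within the ES range, and Shef7 was the lowest array. L1TD1 differed from ES by 0.25 on feeders (SE 0.34, adjusted p = 0.782) and 1.01 on plastic (SE 0.32, adjusted p = 0.0992). All 11 probesets were above ES in EC on plastic by 0.74 to 1.98, 10 of them at an unadjusted p below 0.05, and 1 passed. Probeset 2339336 of L1TD1 averaged 7.17 in EC on feeders, 8.10 in EC on plastic and 6.12 in ES, 1.98 higher on plastic than in ES (SE 0.38, adjusted p = 0.0159). As the mean of its 11 probesets, L1TD1 also passed on plastic (difference 1.08, adjusted p = 0.0447).

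DPPA2 gave the only call at gene level. On feeders it was at 7.66 in NTERA2, 9.26 in 2102Ep and 9.51 in 833KE. On plastic it was at 5.93 in NCCIT, 9.74 in 2102Ep, 10.27 in 833KE, 9.83 in TERA1 and 7.57 in NTERA2. ES lines held 5.53 (Shef7) as the lowest, 6.29 as the median and 7.24 (Shef5) as the highest value. All EC arrays except NCCIT lay above all ES lines, 2102Ep, 833KE and TERA1 by over 2. NTERA2 was the lowest of the rest at nearly the same level on both surfaces.

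In EC on feeders DPPA2 averaged 8.81 ± 1.00 (SD, n = 3) and in ES lines 6.29 ± 0.68 (SD, n = 6). The difference was 2.52 (SE 0.47), or 5.75-fold, with an adjusted p of 0.0266 by limma, and the groups did not overlap. It averaged 8.67 ± 1.86 in EC on plastic (SD, n = 5), 5.20-fold above ES, and did not pass there (difference 2.38, SE 0.71, adjusted p = 0.0832). NCCIT lay 3.42 below the mean of the other 4 EC lines on plastic. Over the 11 fits that each left out 1 line, the difference on plastic ran from 1.98 to 3.06. Without NCCIT it was 3.06 (adjusted p = 0.007), and with only the 3 lines that were also grown on feeders it was 2.90 (adjusted p = 0.0237). Both of these settings leave out NCCIT, the low array. On feeders the call was lost with the array code as a block (2.42, adjusted p = 0.0509), with all 14 arrays in 1 fit (2.32, adjusted p = 0.141), and without 2102Ep (2.30), Shef6 (2.46), Shef3 (2.40), Shef7 (2.37) or 833KE (2.17), at adjusted p from 0.0542 to 0.103. Among arrays with higher codes, where EC is 833KE alone and is assumed to vary like the ES lines, it was 3.54 (adjusted p = 0.0295).

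The probesets of DPPA2 moved together. Of 10, 9 lay above all ES lines in EC on feeders (4.14% of all probesets did), with differences of means from 2.45 to 3.66, and 5 passed. On plastic 9 were higher by 2.22 to 3.69 and 3 passed. In ES lines 2688176, which had the largest differences, averaged 4.24, and 2688168 averaged 3.07. Both lie below the 25th percentile of probeset means (4.82) and are not shown to be above background there. For 2688168 the lowest EC array on feeders was at 5.11 (NTERA2) and the highest ES line at 5.09 (Shef5). The tenth, 2688179, was dim in every array, with 3.10 in EC on feeders, 2.82 in EC on plastic and 2.90 in ES. In NCCIT 1 of the 10 lay above the array's exon-level median, as in Shef3 and Shef7, against 8 or 9 in the other EC arrays.

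DPPA4, the partner of DPPA2, did not pass in either comparison with ES. On feeders it was at 10.43 in NTERA2, 10.18 in 2102Ep and 10.73 in 833KE. DPPA4 on plastic was at 9.92 in NCCIT, 10.74 in 2102Ep, 11.18 in 833KE, 11.23 in TERA1 and 11.18 in NTERA2. ES values ran from 10.03 (Shef6) through a median of 10.37 to 11.02 (H9). NCCIT was again the lowest EC array, and both EC groups overlapped with ES. Over the 14 arrays, which share lines and codes, the levels of DPPA2 and DPPA4 correlated at r = 0.59. DPPA4 differed from ES by 0.04 on feeders (95% interval -0.46 to 0.53) and 0.44 on plastic (-0.11 to 0.99, adjusted p = 0.382). All 13 probesets were above ES on plastic (0.23 to 0.86) and 6 of 13 on feeders (-0.43 to 0.25). In the RefSeq order of genes with a cluster of their own, DPPA4 is next to DPPA2. MORC1, the next such gene on the other side of DPPA2, was dim in every array (2.22 to 2.47).

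UTF1 was at 7.44 in NTERA2, 8.34 in 2102Ep and 8.23 in 833KE on feeders. UTF1 on plastic was at 6.98 in NCCIT, 7.81 in 2102Ep, 7.62 in 833KE, 7.89 in TERA1 and 7.45 in NTERA2. In ES lines the lowest, median and highest were 7.01 (Shef6), 7.43 and 7.81 (Shef5). 2102Ep and 833KE on feeders were the highest 2 arrays, and the groups overlapped. UTF1 differed from ES by 0.59 on feeders (SE 0.24, adjusted p = 0.231) and 0.14 on plastic (SE 0.19, adjusted p = 0.760). All 6 probesets were above ES on feeders, by 0.13 to 1.74, and 4 of 6 on plastic. This counts 3272695, which averaged 1.71 over all arrays and lay below every array's exon-level median.

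ZFP42 was at 8.63 in NTERA2, 10.32 in 2102Ep and 11.32 in 833KE on feeders. On plastic it was at 10.01 in NCCIT, 11.16 in 2102Ep, 11.26 in 833KE, 7.81 in TERA1 and 4.22 in NTERA2. In ES lines the lowest, median and highest were 3.41 (Shef3), 10.15 and 10.55 (H9). The other 5 ES lines lay within 9.91 to 10.55, and Shef3 alone was far below. Among EC arrays NTERA2 on plastic was far below, TERA1 was next, and 2102Ep and 833KE were high on both surfaces.

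Shef3 was 6.80 below the mean of the other 5 ES lines (10.21 ± 0.25, SD, n = 5), on the log2 scale. NTERA2 had ZFP42 4.42 higher on feeders than on plastic, from 1 array each. Both low values (3.41 and 4.22) lie below the 25th percentile of cluster means (4.58) and are not shown to be above background, so no fold is given against them. The NTERA2 arrays also differ in medium and in code, so these cannot be told apart there. The standard deviation of ZFP42 was 2.96 over EC lines on plastic and 2.79 over ES lines, at the 99.98th and 99.99th percentiles of all clusters. The group means then differed by less than this spread, with 1.01 in EC on feeders against ES (SE 1.44, adjusted p = 0.788) and -0.19 in EC on plastic against ES (SE 1.51, adjusted p = 0.968). Without Shef3 and NTERA2 on plastic, a setting chosen after the values were seen, the difference on plastic was -0.15 (adjusted p = 0.941).

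The low arrays were low over the whole gene. In Shef3 0 of the 9 probesets of ZFP42 exceeded the array's exon-level median, and their median was 3.10, the highest being 6.10. In NTERA2 on plastic 0 of 9 exceeded it, with a median of 5.05, whereas on feeders 8 of 9 did, with a median of 9.07. In TERA1 7 of 9 did. Shef3 had the highest SALL4 of the 14 arrays (11.37), and 18 of 20 measured pluripotency markers outside the 10 genes lay above its array median, as in most ES arrays (17 or 18). Its DPPA2 (5.66) was below the ES median of 6.29. Among 18 germ layer and trophoblast markers, 11 lay above its array median, against 8 to 10 in the other ES lines. Their median level in Shef3 was 6.48, inside the ES range of 5.86 to 6.95. A link of these levels to its low ZFP42 was not tested. In the RefSeq order of genes with a cluster of their own, FAT1, a cadherin, and TRIML2 are next to ZFP42 on its 2 sides. FAT1 was at 9.44 in Shef3 and 8.65 to 9.95 in the other ES lines. TRIML2 was at 5.30 in Shef3 and 5.55 to 7.27 in the other ES lines. TRIML2 was at 8.09 in NTERA2 on feeders and 8.70 on plastic.

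**Figure D3:**
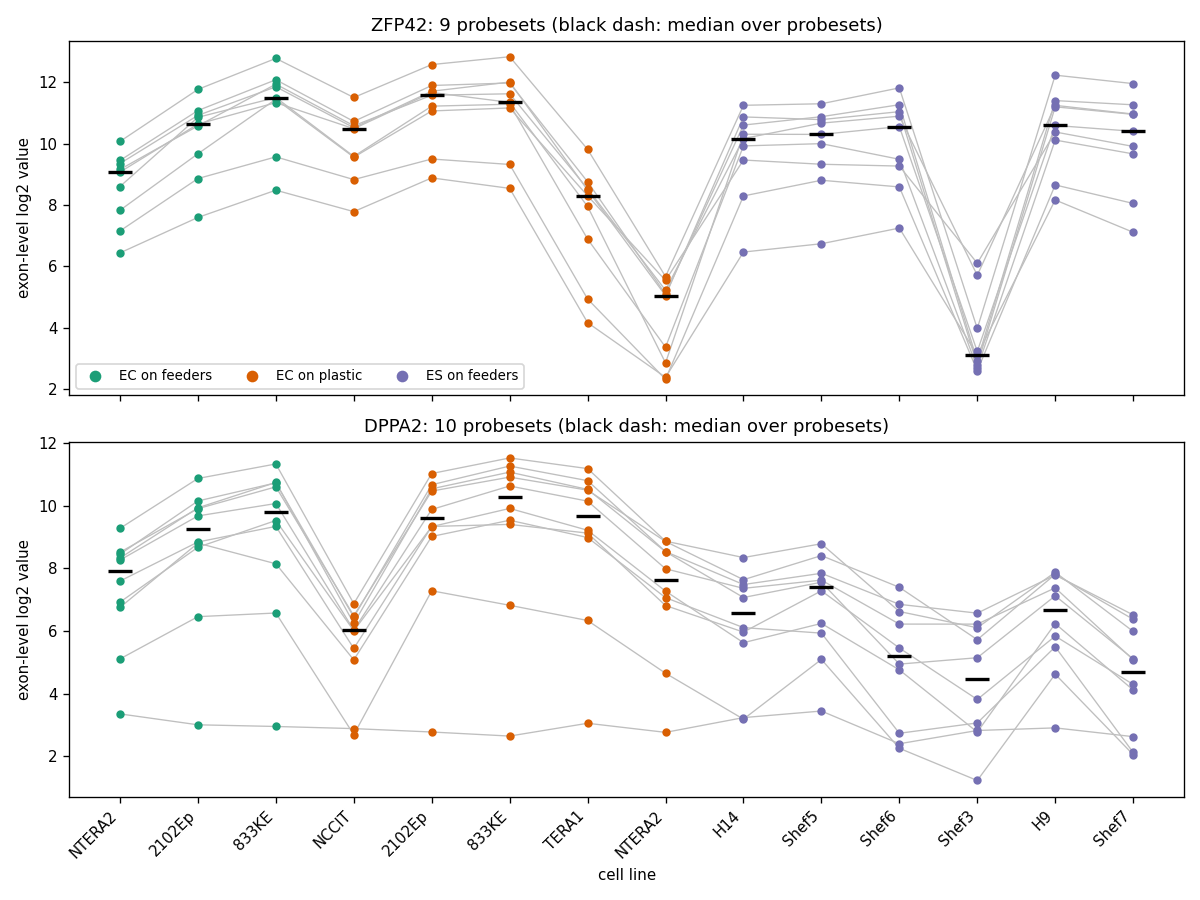
Exon-level log2 value (y axis) of the 9 probesets of ZFP42 (upper panel) and the 10 of DPPA2 (lower panel) in each array (x axis), with EC on feeders, EC on plastic and ES on feeders from left to right. Grey lines join a probeset across arrays. All ZFP42 probesets drop in NTERA2 on plastic and in Shef3, and all DPPA2 probesets but a dim one drop in NCCIT and in the ES lines.

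The promoters of the 2 genes that vary most, ZFP42 and DPPA2, and of DPPA4, the neighbour and partner of DPPA2, are shown for their unlike base composition. Each is the stretch of 300 bases that RefSeq (GRCh38.p14) gives from 250 before to 50 after a transcript start, 5′ to 3′ on the strand of the gene. For ZFP42 and DPPA2 that start is the outer end of the RefSeq gene, and for DPPA4 it lies inside it. They lie at chr4:187995521-187995820 (ZFP42, plus strand), chr3:109316468-109316767 (DPPA2, minus strand) and chr3:109337497-109337796 (DPPA4, minus strand). Capitals mark ACAAAG, the core of SOX-family motifs, and GGGCGG, the GC box, on either strand (CTTTGT and CCGCCC on the other).
ZFP42: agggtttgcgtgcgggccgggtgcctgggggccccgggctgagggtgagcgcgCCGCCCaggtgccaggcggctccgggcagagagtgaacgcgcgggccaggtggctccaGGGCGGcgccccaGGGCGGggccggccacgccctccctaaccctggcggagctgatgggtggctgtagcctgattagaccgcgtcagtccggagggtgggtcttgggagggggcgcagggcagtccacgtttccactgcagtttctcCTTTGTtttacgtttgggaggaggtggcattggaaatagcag
DPPA2: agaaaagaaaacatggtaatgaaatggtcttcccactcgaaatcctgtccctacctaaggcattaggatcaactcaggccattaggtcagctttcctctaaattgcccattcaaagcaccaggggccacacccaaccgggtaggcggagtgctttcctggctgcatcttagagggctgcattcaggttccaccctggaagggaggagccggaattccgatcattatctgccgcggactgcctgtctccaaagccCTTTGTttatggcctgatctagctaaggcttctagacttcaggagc
DPPA4: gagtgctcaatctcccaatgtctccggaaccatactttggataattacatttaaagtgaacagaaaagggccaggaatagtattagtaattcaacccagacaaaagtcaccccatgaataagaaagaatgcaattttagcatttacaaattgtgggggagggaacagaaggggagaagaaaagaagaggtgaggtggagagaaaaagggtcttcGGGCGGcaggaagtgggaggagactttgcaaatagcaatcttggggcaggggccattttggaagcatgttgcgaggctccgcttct
The ZFP42 stretch held 24 CpG pairs, against 7 in DPPA2 and 5 in DPPA4 and a median of 14 over 35116 RefSeq promoters. Its letters held 3 GC boxes and 1 ACAAAG, those of DPPA2 held 1 ACAAAG and those of DPPA4 held 1 GC box. ACAAAG is found in 16.1% and GGGCGG in 44.95% of all promoters of this length. RefSeq promoters were matched for 7 of the 10 genes. The octamer ATGCAAAT, the classical POU-factor motif, was in none of these stretches on either strand, and is in 1.77% of all promoters.

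**Figure D4:**
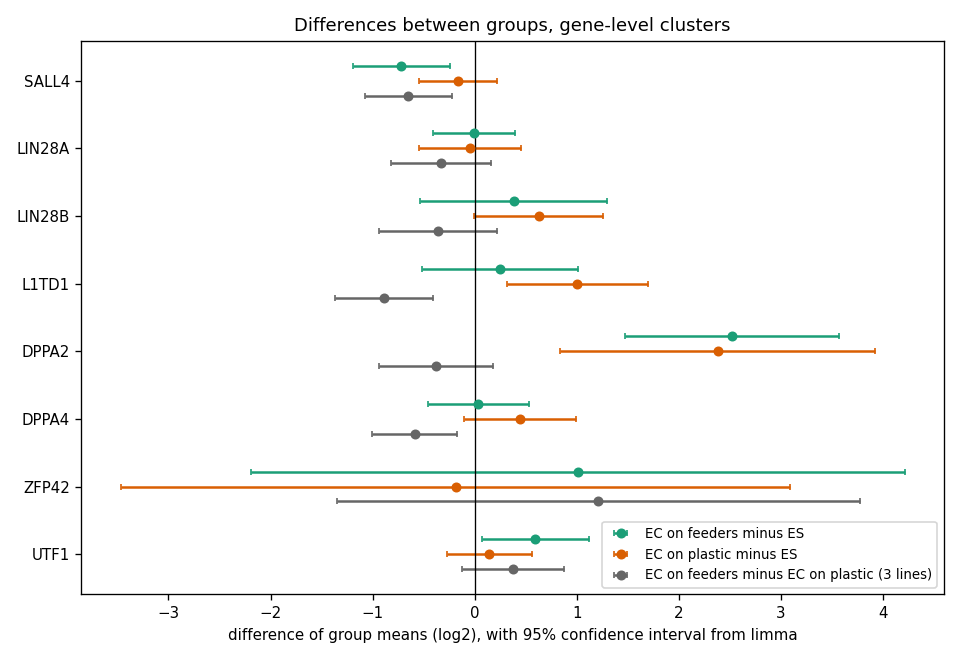
Differences of group means on the log2 scale (x axis) with 95% confidence intervals from limma, for the 8 genes with a cluster of their own. From top to bottom in each gene they are EC on feeders minus ES, EC on plastic minus ES, and EC on feeders minus EC on plastic in the same 3 lines. DPPA2 has the largest differences from ES (2.52 on feeders and 2.38 on plastic), and the intervals of ZFP42 span several units.

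The 3 lines grown both ways allow surface and medium to be compared within a line. By limma 0 of the 8 clusters passed, as 0 of all clusters did, and 3 were at an unadjusted p below 0.05 against 14.9% of all clusters. These were L1TD1, SALL4 and DPPA4, each lower on feeders in all 3 lines, which held for 18.1% of all clusters (20.6% were higher in all 3), and none of the 8 was higher in all 3. L1TD1 was lower on feeders by 0.57 in NTERA2, 0.91 in 2102Ep and 1.19 in 833KE (difference -0.89, SE 0.19, adjusted p = 0.240). SALL4 was lower by 0.84, 0.54 and 0.56 in the same order (difference -0.65, SE 0.17, adjusted p = 0.258), and DPPA4 by 0.76, 0.56 and 0.45 (difference -0.59, SE 0.17, adjusted p = 0.272). In each of these 3 genes the feeder arrays lay below the plastic arrays of the 3 lines without overlap, which was so for 6.88% of all clusters. 833KE is the line whose 2 arrays both have higher codes. In NTERA2 and 2102Ep the code goes from low on feeders to higher on plastic, so code, surface and medium cannot be told apart there. UTF1 was higher on feeders by 0.53 in 2102Ep and 0.61 in 833KE and differed by -0.01 in NTERA2. ZFP42 moved by 4.42 in NTERA2, -0.84 in 2102Ep and 0.06 in 833KE. DPPA2 differed by 0.10, -0.47 and -0.76 in these lines.

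At exon level 52 of the 88 probesets were lower on feeders in all 3 lines and 4 were higher, against 19.6% and 17.8% of all probesets. Probesets of 1 gene are not separate replicates, and SALL4 and DPPA4 hold 13 of the 88 each and L1TD1 11. By gene, 3 of the 8 clusters were lower in all 3 lines and 0 were higher. The fibroblast markers, measured on the same arrays, were higher on feeders than on plastic for 10 of 11, and 0 passed in limma. Their median difference was 0.51, beside 0.02 over all clusters, and the dimmest averaged 1.78 in EC on feeders. Germ layer and trophoblast markers were higher on feeders for 14 of 18, with a median of 0.13, and 0 passed. The median level of the fibroblast markers by array was 6.04 to 6.63 in EC on feeders, 5.02 to 5.81 in EC on plastic and 5.79 to 6.87 in ES lines. The part of RNA from feeder cells in these differences was not tested.

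**Figure D5:**
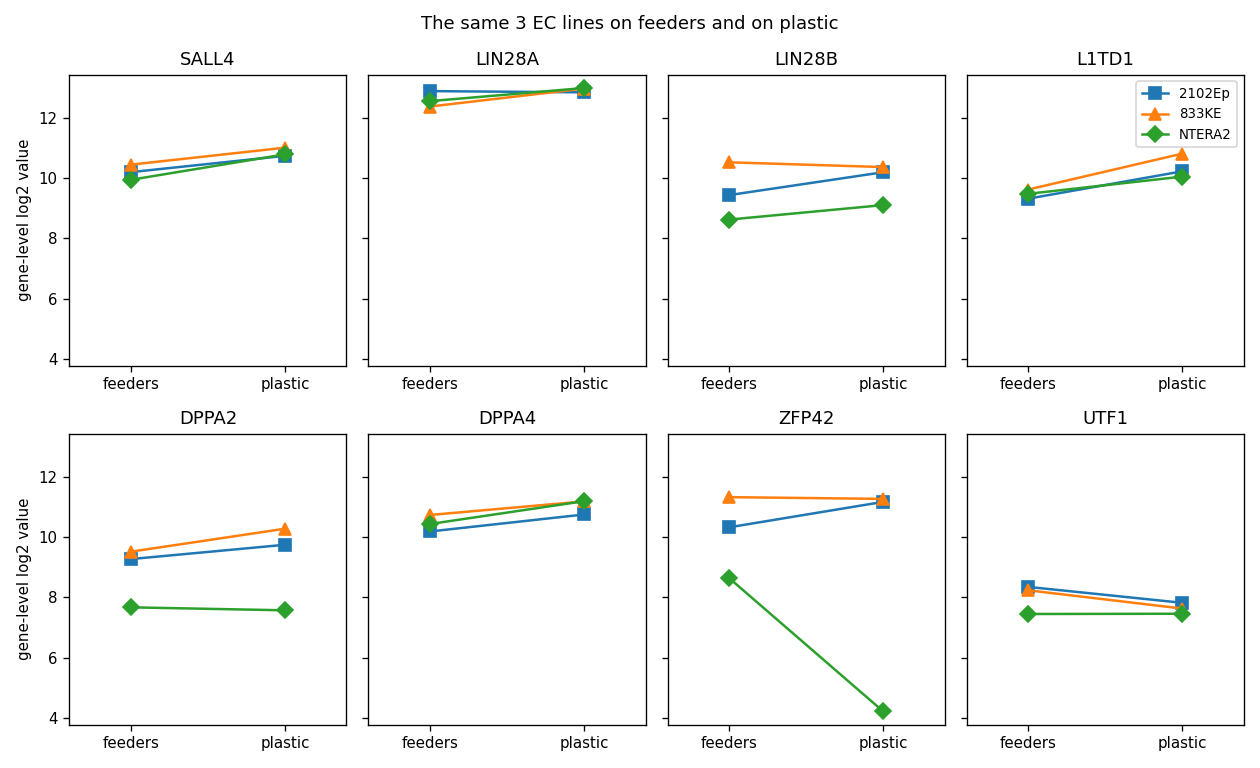
Gene-level log2 value (y axis) of the 8 genes with a cluster of their own in 3 EC lines grown on feeders and on plastic (x axis), with a line joining the 2 arrays of a cell line. SALL4, L1TD1 and DPPA4 are lower on feeders in all 3 lines, and ZFP42 changes by more than 1 in NTERA2 alone.

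No sign of a change in exon usage passed. limma's diffSplice sets each probeset's difference against that of the gene's other probesets. It tested 80 probesets of 9 of the genes, POU5F1 having too few above the filter on dim probesets. In EC on feeders against ES it called 0 of 80, where it called 0.159% of all probesets tested. There 1 of 80 had an unadjusted p below 0.05, 3272694 of UTF1. In EC on plastic it called 0 of 80, where it called 0.346% of all. Again 1 of 80 had an unadjusted p below 0.05, 2339336 of L1TD1, the probeset of that gene that passed between EC on plastic and ES. The share of all probesets at that unadjusted p is not given here.

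The genes around these 10 were read from lists at gene level. Against ES, 2.29% of all clusters passed on feeders and 4.6% on plastic, the shares to set beside each list. Of 20 measured further pluripotency markers, 1 rose and 1 fell against ES on each surface, with a median difference of -0.21 on feeders and -0.20 on plastic. GDF3, a TGF-beta family ligand, rose by 3.50 on feeders (adjusted p = 0.0188) and 3.49 on plastic (adjusted p = 0.0087). CNMD, which encodes chondromodulin, fell by 1.29 on feeders (adjusted p = 0.0222) and by 1.79 on plastic (adjusted p = 0.0024). Of 18 partners of LIN28 and targets of let-7, 0 passed on either surface in limma, with medians of -0.05 on feeders and 0.06 on plastic. The smallest p on feeders were those of DICER1, which cuts microRNA precursors (difference -0.84, adjusted p = 0.167), and the activin receptor gene ACVR2A (-1.01, adjusted p = 0.227). On plastic they were those of TUT4, which adds uridines to the let-7 precursor that LIN28A holds (1.03, adjusted p = 0.0925), and the phosphatase gene CDC25A (0.51, adjusted p = 0.118).

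Of 8 measured subunits of NuRD, the deacetylase complex that SALL4 recruits, HDAC1 rose on both surfaces. Among all clusters 2.29% passed on feeders and 4.6% on plastic. HDAC1 averaged 10.80 in EC on feeders and 10.75 in EC on plastic, against 9.94 in ES, with differences of 0.86 (adjusted p = 0.025) and 0.81 (adjusted p = 0.00893). The other 7 did not pass, and the medians of the list were 0.15 on feeders and 0.11 on plastic. Of 13 measured paralogs of the 10 genes, SALL2 fell on plastic by 1.46 (7.41 in EC against 8.87 in ES, adjusted p = 0.0135). On feeders 0 of 13 passed, with SALL2 at -1.16 (adjusted p = 0.125) and SOX21 at -0.90 (adjusted p = 0.134).

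Markers of differentiated cells were lower in EC than in ES where they passed. Among all clusters 2.29% passed on feeders and 4.6% on plastic. Of 18 measured germ layer and trophoblast markers, CXCR4 fell on feeders (-1.33, adjusted p = 0.0318), and on plastic EOMES (-1.79, adjusted p = 0.00294), GATA6 (-0.77, adjusted p = 0.00599), MIXL1 (-2.25, adjusted p = 0.0263) and SOX17 (-0.65, adjusted p = 0.0273) fell. Their medians were -0.27 on feeders and -0.34 on plastic. Their median level by array was 5.95 to 6.17 in EC on feeders, 5.78 to 6.03 in EC on plastic and 5.86 (H9) to 6.95 (Shef5) in ES lines. Of 11 fibroblast markers 0 passed on feeders, where PDGFRB (0.67, adjusted p = 0.114) and COL5A2 (-0.94, adjusted p = 0.128) had the smallest p. On plastic the collagen genes COL5A2 (-1.40, adjusted p = 0.0058), COL6A1 (-1.32, adjusted p = 0.00671) and COL1A1 (-1.65, adjusted p = 0.0188) fell. Their part in the levels of the 10 genes was not tested.

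For each gene, the clusters whose level over the 14 arrays was most like its own were looked up. The closest were those of DPPA2, with r of 0.98 for NRK, 0.97 for NLRP7 and 0.96 for HSD17B6. UTF1 had HMOX2 at 0.93, TCL1A and LIM2 at 0.92 each. LIN28B had FBXO8 at 0.93, CEPT1 at 0.88 and PRIM2 at 0.87, and LIN28A had CAMKV at 0.90, SCG3 and ACTN4 at 0.87 each. SOX2 had MYO1E at 0.89, UGP2 at 0.86 and TM9SF3 at 0.81, and SALL4 had STAU2 and SERAC1 at 0.87 each and GIMAP6 at 0.85. L1TD1 had FASTKD1 and RAB3B at 0.87 each and TXNDC9 at 0.86, DPPA4 had IL1A and ARPC5 at 0.86 each and DAZAP2 at 0.84, and POU5F1 had C6orf136 at 0.87, ZNRD2 at 0.84 and ENTREP1 at 0.83. ZFP42 had the least close matches, C5orf58 at 0.78, TNIP3 at 0.76 and RBP7 at 0.74. TNIP3 (1.99 to 2.67) and GIMAP6 (3.71 to 4.27) lay below the 25th percentile of cluster means (4.58) in every array. C5orf58 ran from 3.09 to 4.61. Such levels are not shown to be above background. Each is picked from all clusters with 1 symbol, and the 14 arrays share lines, codes and growth conditions, so these are descriptions of the arrays.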

How the data were processed

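The assay was the Affymetrix Human Exon 1.0 ST array, run on RNA of 14 cultures. The authors deposited log2 values for 22011 transcript clusters and 287329 probesets. The submitters' processing notes name RMA, Affymetrix Expression Console and limma, with versions, settings and genome build not given in the sources used here. The log2 scale was read from the values. Array medians lay between 6.19 and 6.39 at gene level. No detection values were used, and signal over background is unknown.

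Symbols came from the platform annotation, updated through RefSeq. Group comparisons used limma 3.58.1 (R 4.3.3), with two-sided moderated tests from lmFit and eBayes and p-values adjusted by Benjamini-Hochberg across every feature (threshold 0.05), tested first on simulated data, and probeset usage with diffSplice (probesets above the 25th percentile of mean level, genes with 3 or more). EC on feeders against EC on plastic had the cell line as a block. The pairing comes from the line. After removal of the group means, arrays of the same line correlated across genes at 0.41, 0.34 and 0.51. All other pairs were below 0, which removing a mean over 3 lines favours by itself. The alternatives were quantile normalisation, median centring, a filter on dim features, 1 fit of all arrays, robust eBayes, the array codes, the line block, probeset means and leaving out each line. P-values against ES measure the spread between lines. Between feeders and plastic they measure the spread of the within-line differences over 3 lines.

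The 10 genes and all lists were chosen with earlier results of these data known. All 10 are named. From each list the called genes are named, up to 4, or else the 2 with the smallest p, and for each gene the 3 most alike clusters. Figures used matplotlib 3.10.9.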

Additional observations from a re-analysis of the deposited data

Results flagged for a closer look

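Of 20 sets of levels tested for a single array far from the rest (10 genes in EC on plastic and in ES), 1 stood out, where chance gives about 1 in 20. It was ZFP42 in ES lines, where Shef3 was at 3.41 and the nearest other line at 9.91. That gap is 0.91 of the group's whole range, above Dixon's critical value of 0.625 for 6 arrays. NTERA2 on plastic (4.22) was not singled out among the 5 EC lines, since TERA1 (7.81) lies between it and the others.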

How the results depend on the processing

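Counts of passing members moved as follows. At gene level in EC on plastic 0 passed, and 1 did without NCCIT or with only the 3 lines also grown on feeders, 2 with probeset means, and 0 to 1 over all fits that left out 1 line. In EC on feeders 1 passed, 2 with quantile normalisation, 0 with all 14 arrays in 1 fit or the code as a block, and 0 to 1 when 1 line was left out. At exon level in EC on plastic 4 passed, 1 among higher codes or without both Shef3 and NTERA2 on plastic, 8 with the 3 lines, and 1 (without Shef3, Shef6, Shef7, 2102Ep or 833KE) to 11 (without NCCIT) when 1 line was left out, with 2 without H14, Shef5 or TERA1. In EC on feeders 5 passed, 0 with all 14 arrays or the code as a block, and 0 (without 2102Ep, 833KE, Shef3, Shef6 or Shef7) to 9 (without NTERA2) when 1 line was left out, with 1 without H9 and 3 without H14. Against plastic, feeders gave 0 with and without the replicate block of cell lines, and the pairing changed no call. Probeset usage gave 0 under all settings run.

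Signs turned only for differences that did not pass. ZFP42 on plastic was 0.26 with the code as a block and among higher codes, and -1.32 to 0.98 when 1 line was left out (0.0062 without Shef5, 0.0582 without Shef6, 0.0827 without TERA1, 0.046 without Shef7, 0.105 without H9 and 0.98 without NTERA2; below 0 without the others). ZFP42 was -0.12 to 1.74 on feeders (below 0 without Shef3) and -0.39 to 2.24 between surfaces (below 0 without NTERA2). LIN28A on plastic was 0.32 with the 3 lines, 0.14 with probeset means and -0.15 to 0.16 when 1 line was left out (0.0248 without TERA1, 0.0264 without H9), and on feeders 0.0181 with probeset means and -0.15 to 0.11 (0.0178 without NTERA2, 0.0293 without Shef3, 0.0662 without H9). DPPA4 on feeders was -0.13 with quantile normalisation, -0.0012 with centring, -0.0363 with all 14 arrays, -0.0225 with probeset means and -0.11 to 0.17 when 1 line was left out (-0.0399 without Shef6, -0.0147 without Shef7). LIN28B on feeders was -0.12 to 0.83, and SOX2 probeset 2654505 on plastic -0.14 to 0.0257 (0.0005 without 833KE, 0.0217 without H9). Counted per gene, comparison and setting, 431 fits kept direction and side of the threshold and 31 turned sign. Another 5 passed where the main fit did not, and 7 did not pass where the main fit did. The causes were not tested. The limits are the few lines per group, 1 array per line and condition, the codes that run partly with the groups, and signal over background that is unknown.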

Other observations

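Shef7 was the lowest of the 14 arrays at 10 of 11 probesets of L1TD1 and at 24 of the 29 shared POU5F1 probesets, and the lowest in DPPA2 at gene level (5.53), while its ZFP42 (10.25) and SALL4 (11.06) were within the range of the other ES lines. NCCIT was the lowest EC line on plastic in LIN28A (11.75), DPPA2 (5.93), DPPA4 (9.92), UTF1 (6.98) and SALL4 (10.38), and the highest in SOX2 (10.90). NTERA2 on feeders was the lowest of all arrays at 9 of 13 probesets of SALL4. NRK, the gene with the level most like that of DPPA2, ran from 4.24 to 9.81 over the 14 arrays and NLRP7 from 3.71 to 11.23. HSD17B6 ran only from 4.44 to 6.14.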
